A study of Mus musculus with 12 samples.

Results

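The genes described here encode the granule proteins, surface receptors and NADPH oxidase subunits of the neutrophil. They are 33 genes taken by name, among 18193 genes that the arrays carry with a probe set of a single symbol. A probe set is a group of short probes against one transcript. Of the 33 genes, 29 had such a probe set, with 40 probe sets between them, and 23 could be tested. Another 6 (Elane, Mpo, Prtn3, Camp, Itgb2l and Trem3) had no probe set above the filter on low values and are given by level, with a test only in a fit without that filter. Cebpe, Mmp25, Retnlg and Fpr1 had no such probe set, and their expression was not analysed here. Of these, Mmp25, Retnlg and Fpr1 enter only the promoter counts below.

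The study measured RNA of mouse lung on 12 single-colour Affymetrix arrays, with 3 mice in each of 4 groups aged 8 to 12 weeks. Wild type mice and knockout mice, titled GADD45-/- and in the series title GADD45a, were each studied under a condition titled SB and under VILI. SB is not spelled out in the labels; in the series design the wild type SB mice are the control group. The VILI mice were ventilated for 4 hours at 65 breaths per minute and 30 ml/kg. The design asks how the lung responds to this ventilation and whether the response depends on the deleted gene. One genotype label writes GADD-/-. The sources used here name no allele, strain, sex or batch. Values are log2 expression as deposited, so that a difference of 1 is a doubling.

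A neutrophil fills its granules in sequence while it matures in the bone marrow. Primary (azurophil) granule proteins such as elastase and myeloperoxidase are transcribed in promyelocytes, specific granule proteins such as lactoferrin in myelocytes, and gelatinase granule enzymes and many surface receptors later still. Circulating neutrophils have largely shut off the early genes but carry transcripts of the late ones, and they gather in the lung when it is injured. The lung tissue was measured whole, so that more cells of a type and more RNA per cell cannot be told apart.

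The 7 lung-defining markers were measured on every array, with means between 13.3 and 13.9. The targeted gene Gadd45a read 8.62, 9.51 and 8.69 in wild type SB, 9.75, 9.77 and 10.33 in wild type VILI, 4.87, 6.15 and 4.58 in knockout SB and 5.87, 6.02 and 5.36 in knockout VILI, so that no knockout array reached a wild type one. The medians of the 12 arrays lay between 4.36 and 4.58. The replicate 3 arrays of both knockout groups stood apart: their B cell markers (3 of 7 measured) averaged 10.4 and 10.8, against 5.54 to 7.90 on the other arrays, and they had the highest Pglyrp1 of their groups. Ltf was highest on replicate 3 in every group, wild type as well as knockout. Both knockout arrays are given below with the results they touch.

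Most of the late genes rose after VILI, while most of the specific granule and oxidase genes did not pass the test and the primary granule genes were too low to test. Of the 23 tested genes, 10 rose and 0 fell in wild type lungs, where 1.36% of all genes were called higher and 1.28% lower. In knockout lungs 10 rose and 0 fell, where 2.76% of all genes were called higher and 1.7% lower. Averaged over the genotypes 15 rose and 0 fell, against 8.42% of all genes higher and 9.39% lower. A gene was called where its adjusted p in limma, over 10996 genes, was below 0.05. The median change of the 23 was 1.14 in wild type and 0.97 in knockout, against -0.05 and 0.00 over all genes. The 10 genes called in wild type and the 10 called in knockout were the same: Mmp8, Mmp9, S100a8, S100a9, Stfa2l1, Anxa1, Clec4d, Clec4e, Csf3r and Itgam, each a late gene.

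The filter kept a probe set that was above its array's median on at least 3 arrays. Ngp, Padi4 and Clec4e had 0 SB arrays above it and Mmp8 had 1, so these were measured through their VILI arrays and had to be higher there. Among the 19 genes with at least 3 SB arrays above the median, 8 rose in wild type, 8 in knockout and 12 on average.

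**Figure D1:**
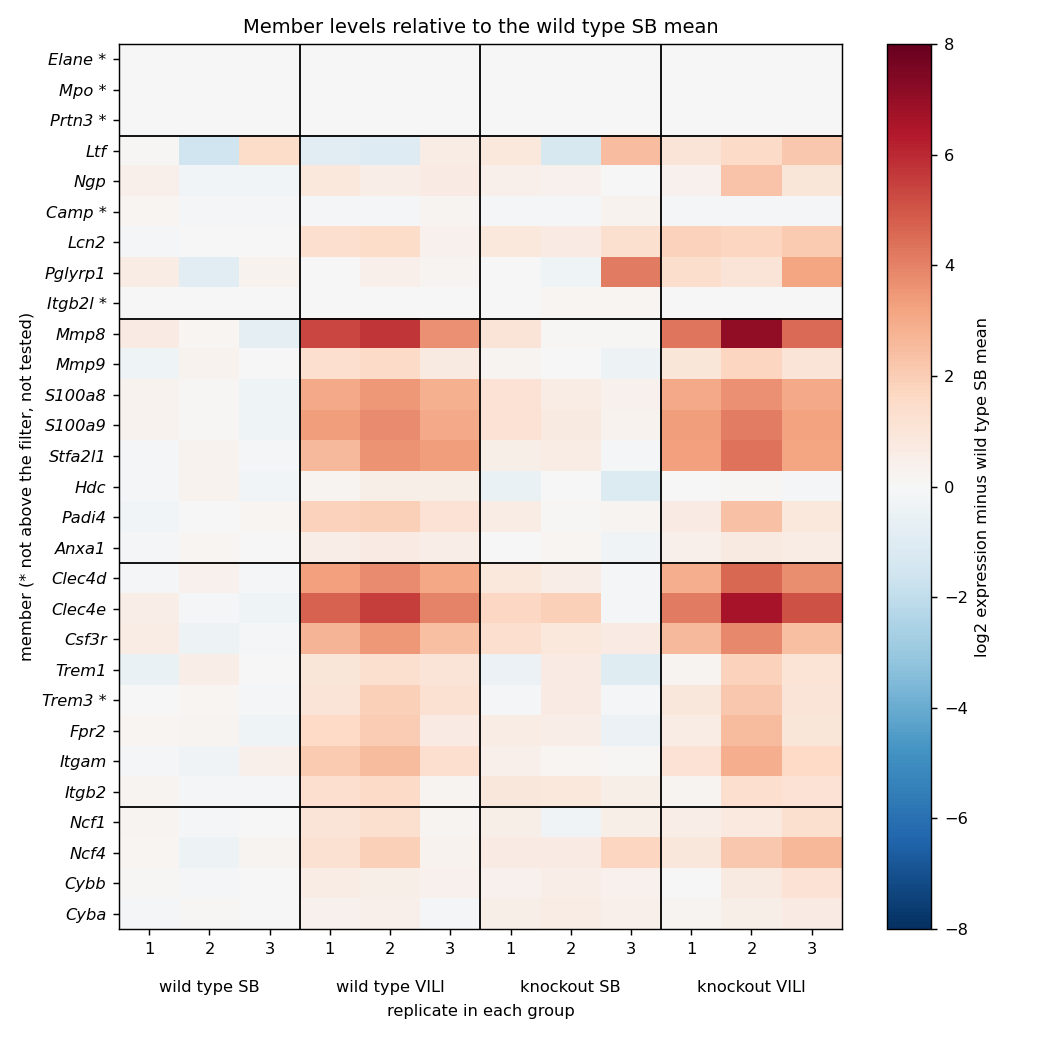
Log2 expression of each gene on each of the 12 arrays minus its wild type SB mean, with genes in rows by class (primary granule, specific granule, late enzymes and cytosol, surface receptors, oxidase) and replicates in columns by group. The rows of Mmp8 and Clec4e are the darkest in both VILI groups, while Elane, Mpo and Prtn3 show no colour on any array.

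The primary granule genes stayed near the low end of the scale, below the median of every array. Elane (neutrophil elastase) lay between 2.07 and 2.11 over the 12 arrays, Mpo (myeloperoxidase) between 1.87 and 1.91, and Prtn3 (proteinase 3) between 2.19 and 2.22. The spread over all arrays was 0.03 for Elane, 0.04 for Mpo and 0.03 for Prtn3. With 0 of 3 genes above the filter they were not among the 23 tested. In a limma fit without the filter none of the 3 was called in any comparison, and a change in these genes was not detectable by these probe sets.

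Of the 7 specific granule genes, 6 had a probe set and 4 were tested: Ltf, Ngp, Lcn2 and Pglyrp1. None was called in wild type or in knockout, with median changes of 0.44 and 0.94, and only Lcn2 rose on average. Camp, the cathelicidin, lay between 2.05 and 2.53, and the 3 probe sets of the integrin gene Itgb2l spread by 0.03, 0.05 and 0.18 over the arrays. In wild type SB, Lcn2 averaged 11.15 and Ltf 8.75, against 4.00 for Ngp and 2.22 for Camp. The part of lung cells other than neutrophils in the values of these genes was not tested.

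Lcn2, lipocalin 2, which binds bacterial siderophores, read 11.08, 11.21 and 11.17 in wild type SB, 12.50, 12.63 and 11.47 in wild type VILI, 12.02, 11.80 and 12.43 in knockout SB and 13.00, 12.89 and 13.25 in knockout VILI. Every VILI array was above every SB array of its genotype, yet the lowest wild type VILI array lay below all of the knockout SB arrays. The average change was 1.0 (SE 0.18, limma adjusted p = 0.00541), a 2.0-fold rise. Within the genotypes it was 1.04 in wild type (SE 0.26, limma adjusted p = 0.0563) and 0.96 in knockout (adjusted p = 0.0612). Without wild type VILI replicate 3, the lowest VILI array, both passed, at 0.00924 and 0.0126.

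Ltf, the iron-binding lactoferrin, varied more among replicates than between conditions. It read 8.87, 7.17 and 10.22 in wild type SB, 7.93, 7.75 and 9.34 in wild type VILI, 9.59, 7.45 and 11.20 in knockout SB and 9.76, 10.29 and 10.93 in knockout VILI. Its change was -0.41 in wild type (SE 0.91, limma adjusted p = 0.838) and 0.91 in knockout (adjusted p = 0.598), and each SB group spanned its VILI group's lowest array.

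Pglyrp1, a peptidoglycan recognition protein, read 6.49, 5.01 and 6.20 in wild type SB, 5.89, 6.33 and 6.12 in wild type VILI, 5.94, 5.56 and 10.08 in knockout SB and 7.32, 6.94 and 9.09 in knockout VILI. The high values 10.08 and 9.09 are those of the replicate 3 knockout arrays. The change was 0.21 in wild type (SE 0.99, limma adjusted p = 0.931) and 0.59 in knockout (adjusted p = 0.775), and 1.38 in knockout without those arrays (adjusted p = 0.122). The part of the B cell marker signal on these arrays in the Pglyrp1 and Ltf values was not tested.

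Ngp, neutrophilic granule protein, read 4.41, 3.78 and 3.80 in wild type SB, 4.83, 4.50 and 4.64 in wild type VILI, 4.40, 4.33 and 3.94 in knockout SB and 4.36, 6.27 and 4.96 in knockout VILI. The wild type groups did not overlap and the knockout groups did. The average change was 0.82 (SE 0.28, limma adjusted p = 0.0631), and it passed without knockout VILI replicate 1 (1.03, adjusted p = 0.0164), as did the knockout change (1.39, adjusted p = 0.0457).

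**Figure D2:**
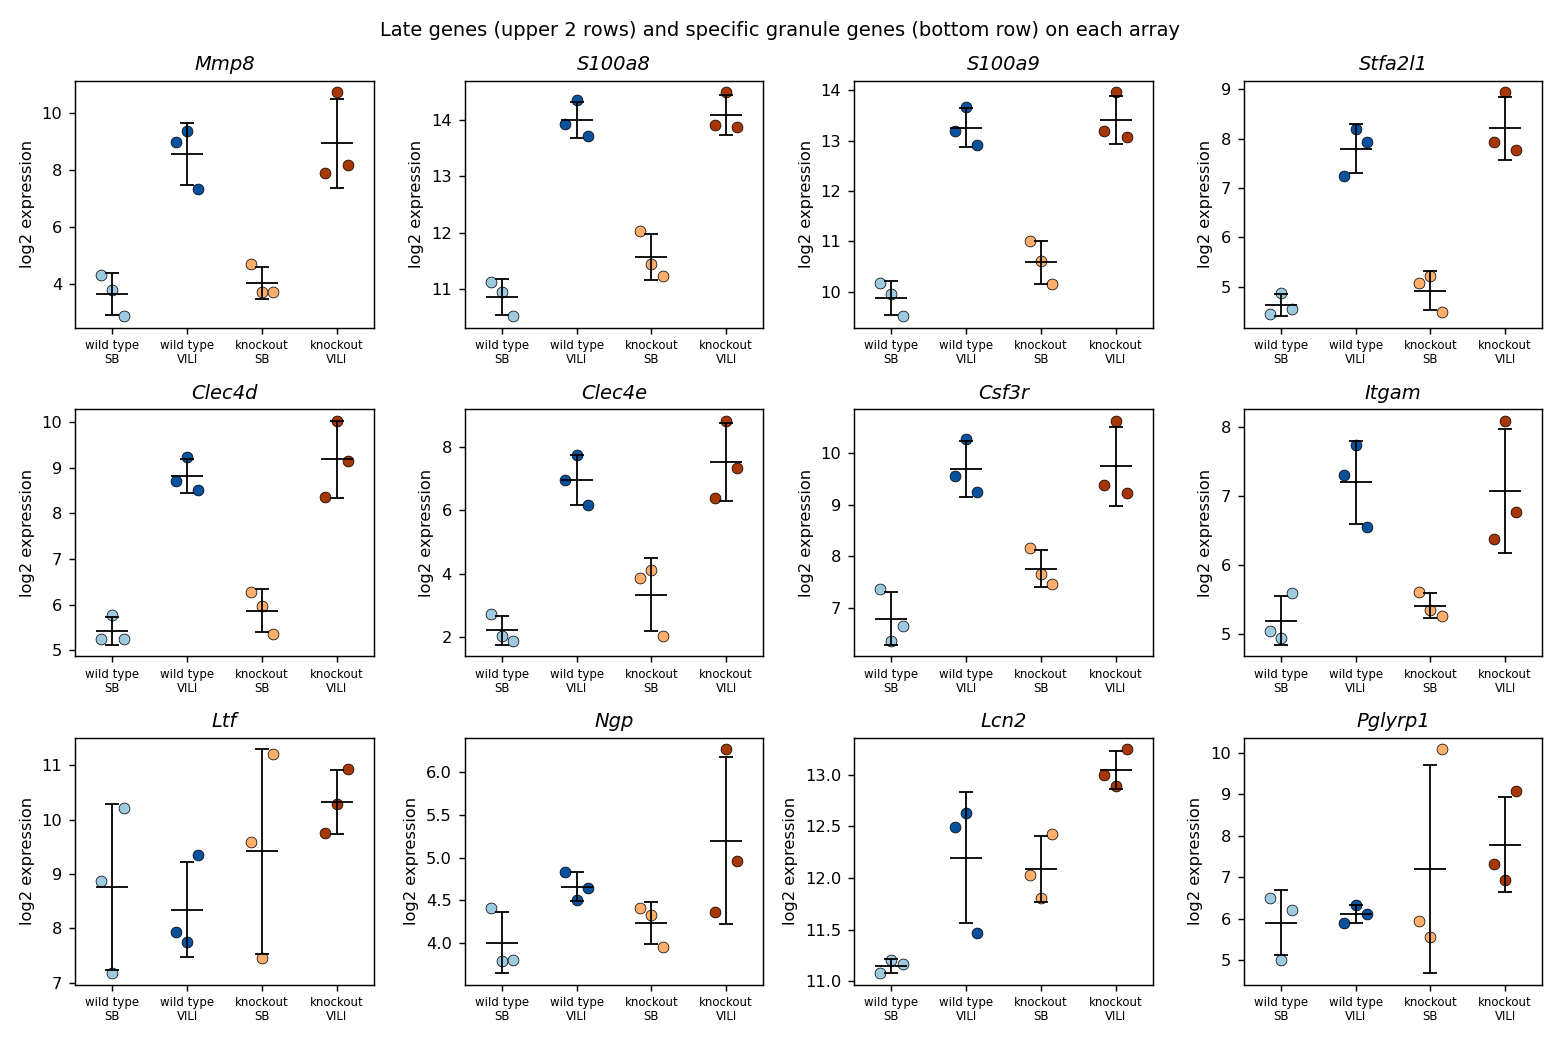
Log2 expression of 8 late genes (upper rows) and the 4 tested specific granule genes (bottom row) on each array, by group, with a horizontal line at the group mean and bars of 1 SD (n = 3). For each of these 8 of the 15 tested late genes the lowest VILI array lies above the highest SB array. Hdc, Trem1 and Itgb2, the tested late genes with overlap, are not shown. The groups of Ltf and Pglyrp1 overlap, with 1 knockout SB array of Pglyrp1 at 10.08.

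Among the late enzymes and cytosolic proteins, 8 of 10 genes were tested, and 6 rose in wild type, 6 in knockout and 7 on average. Their median change was 2.39 in wild type and 1.93 in knockout. The largest average changes were those of the collagenase Mmp8, the stefin Stfa2l1 and the calcium-binding pair S100a9 and S100a8.

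Mmp8, neutrophil collagenase, which is stored in specific granules, read 4.31, 3.77 and 2.85 in wild type SB and 8.99, 9.35 and 7.31 in wild type VILI. In the knockout it read 4.67, 3.71 and 3.71 in SB and 7.90, 10.72 and 8.16 in VILI. No SB array exceeded 4.67 and no VILI array was below 7.31. The change was 4.91 in wild type (SE 0.73, limma adjusted p = 0.0114) and 4.90 in knockout (adjusted p = 0.00845). Since 5 of the 6 SB arrays lay below the array median, at values not shown to be above background, the size of the rise is less certain than its direction. The wild type call was lost without wild type VILI replicate 2 (4.51, adjusted p = 0.0736) or SB replicate 3 (4.51, adjusted p = 0.0674). Mmp8 was counted with the late genes although its protein is stored in specific granules, and the class comparisons rest on that placement.

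S100a8 and S100a9 encode the subunits of calprotectin, the main cytosolic protein of neutrophils. S100a8 read 11.13, 10.95 and 10.51 in wild type SB, 13.92, 14.35 and 13.71 in wild type VILI, 12.02, 11.44 and 11.23 in knockout SB and 13.91, 14.49 and 13.87 in knockout VILI. S100a9 read 10.17, 9.95 and 9.51 in wild type SB, 13.19, 13.68 and 12.91 in wild type VILI, 11.00, 10.61 and 10.15 in knockout SB and 13.20, 13.96 and 13.07 in knockout VILI. For both genes the VILI values of the genotypes overlapped. The knockout SB mean lay above the wild type one, without overlap for S100a8 and with overlap for S100a9.

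S100a8 rose by 3.13 in wild type (SE 0.25, limma adjusted p = 0.000416) and by 2.52 in knockout (adjusted p = 0.00158). S100a9 rose by 3.38 in wild type (SE 0.29, limma adjusted p = 0.000416) and by 2.82 in knockout (adjusted p = 0.00158). Both were called in each of the 12 fits that left out 1 array.

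Stfa2l1, a stefin A family member that inhibits cysteine proteases, read 4.44, 4.87 and 4.55 in wild type SB, 7.24, 8.20 and 7.94 in wild type VILI, 5.07, 5.21 and 4.48 in knockout SB and 7.93, 8.94 and 7.76 in knockout VILI. The SB and VILI arrays were far apart in both genotypes. The gene rose by 3.17 in wild type (SE 0.34, limma adjusted p = 0.00151) and by 3.29 in knockout (adjusted p = 0.00158). Stefin A genes lie in a cluster of close copies, so that a probe set may read more than one of them.

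Mmp9, gelatinase B, the enzyme that names the gelatinase granule, was read by a pair of probe sets. The brighter one read 6.20, 6.82 and 6.54 in wild type SB, 7.84, 8.03 and 7.21 in wild type VILI, 6.71, 6.47 and 6.14 in knockout SB and 7.48, 8.27 and 7.57 in knockout VILI. It rose by 1.18 in wild type (SE 0.27, limma adjusted p = 0.0489) and by 1.33 in knockout (adjusted p = 0.0232). The other probe set read 3.44, 3.58 and 3.33 in wild type SB and 6.13, 7.67 and 4.89 in wild type VILI, a change of 2.78, and changed by 2.53 in knockout. The VILI arrays were above the SB arrays by both, and the sizes differed between them. The wild type call of Mmp9 did not survive leaving out any 1 of 9 arrays, with adjusted p up to 0.194 (without VILI replicate 2), nor the knockout call leaving out any 1 of 4, with adjusted p up to 0.0972 (without knockout VILI replicate 2).

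Anxa1, annexin A1, a regulator of neutrophil egress that lung epithelium also expresses, read 12.94, 13.19 and 13.06 in wild type SB, 13.58, 13.74 and 13.62 in wild type VILI, 13.04, 13.20 and 12.75 in knockout SB and 13.47, 13.75 and 13.65 in knockout VILI. All VILI arrays were above all SB arrays although the change was small, 0.58 in wild type (SE 0.12, limma adjusted p = 0.0329) and 0.62 in knockout (adjusted p = 0.0183). Its other kept probe set changed by 0.51 in wild type and 1.35 in knockout. The mean of both lost the calls, with limma adjusted p = 0.332 in wild type and 0.0946 in knockout. Leaving out 1 array, the wild type call held in 7 of 12 fits and the knockout call in 9 of 12. The adjusted p rose to 0.140 without wild type VILI replicate 2 and to 0.0854 without knockout VILI replicate 2. The wild type call was also lost without the filter (0.0671), with arrays centred on their medians (0.0657) and with no mean-variance trend (0.0512).

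Padi4, the enzyme that citrullinates histones when neutrophils release chromatin, read 2.70, 2.97 and 3.12 in wild type SB, 4.79, 4.85 and 4.08 in wild type VILI, 3.54, 3.03 and 3.15 in knockout SB and 3.61, 5.27 and 3.75 in knockout VILI. The groups did not overlap in either genotype, but the lowest knockout VILI array was only just above the highest knockout SB array. It rose on average by 1.31 (SE 0.28, limma adjusted p = 0.0104). The change was 1.64 in wild type (adjusted p = 0.0512) and 0.97 in knockout (adjusted p = 0.174). The wild type value passed without knockout VILI replicate 1 (adjusted p = 0.0420) or replicate 2 (0.0118), which enter through the shared spread.

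Hdc, histidine decarboxylase, which makes histamine in neutrophils and in mast cells, was the only tested late enzyme not called in any comparison. By its brighter probe set it read 10.03, 10.40 and 9.92 in wild type SB, 10.34, 10.55 and 10.59 in wild type VILI, 9.59, 10.09 and 9.04 in knockout SB and 10.07, 10.20 and 9.96 in knockout VILI, with overlap in both genotypes. The average change was 0.44 (SE 0.16, limma adjusted p = 0.0722), and it passed without knockout SB replicate 2 (0.57, adjusted p = 0.0151). Its other kept probe set changed by 0.67 in wild type, without overlap, and by 0.27 in knockout, with overlap. The mast cell and basophil markers Cpa3, Mcpt4, Tpsb2, Cma1, Fcer1a, Ms4a2 and Mcpt8 had no probe set above the filter. Kit and Gata2, which endothelium expresses too, fell on average by 0.96 (limma adjusted p = 0.00115) and 0.80 (adjusted p = 0.00493).

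Of 9 surface receptor genes 7 were tested, and 4 rose in wild type, 4 in knockout and 6 on average, with median changes of 2.0 in wild type and 1.67 in knockout. The C-type lectins Clec4e and Clec4d and the G-CSF receptor Csf3r had the largest changes by the probe set used for each gene.

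Clec4e, or Mincle, which senses mycobacterial glycolipid and dying cells, read 2.73, 2.03 and 1.87 in wild type SB, 6.94, 7.74 and 6.15 in wild type VILI, 3.88, 4.11 and 2.03 in knockout SB and 6.38, 8.82 and 7.33 in knockout VILI. The gap between the SB and VILI arrays was wide in both genotypes, but all 6 SB arrays lay below the array median, at values not shown to be above background. It rose by 4.73 in wild type (SE 0.67, limma adjusted p = 0.00768) and by 4.17 in knockout (adjusted p = 0.0108). Its other kept probe set changed by 1.71 and 1.57, with 1 knockout VILI array at 7.39 and the others at 3.41 and 3.80. The mean of both did not pass in the knockout (2.87, adjusted p = 0.0545), and the wild type call was lost without wild type VILI replicate 2 (4.33, adjusted p = 0.0578).

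Clec4d, the partner lectin of Clec4e, read 5.26, 5.77 and 5.24 in wild type SB, 8.72, 9.23 and 8.5 in wild type VILI, 6.29, 5.97 and 5.35 in knockout SB and 8.36, 10.02 and 9.15 in knockout VILI. All 6 VILI arrays were above all 6 SB arrays. It rose by 3.39 in wild type (SE 0.38, limma adjusted p = 0.00209) and by 3.31 in knockout (adjusted p = 0.00338).

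Csf3r, the receptor for the cytokine that drives neutrophil production and release, read 7.37, 6.37 and 6.66 in wild type SB, 9.55, 10.27 and 9.24 in wild type VILI, 8.15, 7.67 and 7.47 in knockout SB and 9.38, 10.62 and 9.23 in knockout VILI. The knockout SB arrays lay between the wild type SB arrays and the VILI arrays of both genotypes. It rose by 2.88 in wild type (SE 0.39, limma adjusted p = 0.00675) and by 1.98 in knockout (adjusted p = 0.0205). The knockout call was lost without knockout SB replicate 2 (adjusted p = 0.0536), SB replicate 3 (0.0544) or VILI replicate 2 (0.0762).

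The integrin pair Itgam (CD11b) and Itgb2 (CD18) form Mac-1, the receptor for complement fragment and for adhesion to endothelium. Itgam read 5.04, 4.94 and 5.60 in wild type SB, 7.30, 7.74 and 6.55 in wild type VILI, 5.61, 5.35 and 5.26 in knockout SB and 6.37, 8.09 and 6.77 in knockout VILI. It rose by 2.0 in wild type (SE 0.41, limma adjusted p = 0.0331) and by 1.67 in knockout (adjusted p = 0.0448), with no overlap. The call held in 6 of the 12 fits that left out 1 array in wild type and in 2 of 12 in knockout, with adjusted p up to 0.142 and 0.130, each without that genotype's VILI replicate 2. Without the filter it was lost in both genotypes (adjusted p = 0.0738 and 0.0708), and the knockout call was also lost with arrays centred on their medians (0.0527) and with all kept probe sets tested (0.0616). The average change, 1.83 (limma adjusted p = 0.0027), held in all 12 fits.

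Itgb2 is shared by all leukocyte β2 integrins, and it was the only tested receptor not called in any comparison. It read 9.20, 8.85 and 8.92 in wild type SB, 10.36, 10.49 and 9.19 in wild type VILI, 9.93, 9.87 and 9.49 in knockout SB and 9.22, 10.37 and 10.13 in knockout VILI. Wild type VILI replicate 3 and knockout VILI replicate 1 were at SB levels while the other VILI arrays were higher. Its average change was 0.58 (SE 0.25, limma adjusted p = 0.120). It passed without the former array (0.79, adjusted p = 0.0265) or the latter (0.76, adjusted p = 0.0380).

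Trem1, an amplifier of the inflammatory response, read 5.56, 6.66 and 6.13 in wild type SB, 7.11, 7.40 and 7.12 in wild type VILI, 5.65, 6.75 and 5.16 in knockout SB and 6.36, 7.96 and 7.24 in knockout VILI. It rose on average by 1.21 (SE 0.32, limma adjusted p = 0.0252), with no overlap in wild type and overlap in knockout. Its other probe set stayed below the filter, at 3.79 on knockout VILI replicate 2 and near 2.1 elsewhere. Trem3, a related receptor below the filter, read 2.94, 3.13 and 2.91 in wild type SB and 4.04, 4.89 and 4.20 in wild type VILI, and 2.88, 3.65 and 2.89 in knockout SB and 3.90, 5.13 and 4.00 in knockout VILI. Its differences were 1.38 in wild type and 1.20 in knockout, with no overlap. In a limma fit without the filter its average change was 1.29 (SE 0.25, adjusted p = 0.0144), and neither genotype passed (adjusted p = 0.104 in wild type and 0.0838 in knockout).

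Fpr2, a receptor for formylated peptides and lipid mediators, read 7.76, 7.82 and 7.26 in wild type SB, 9.22, 9.62 and 8.28 in wild type VILI, 8.19, 8.12 and 7.16 in knockout SB and 8.21, 10.13 and 8.60 in knockout VILI. It rose on average by 1.29 (SE 0.34, limma adjusted p = 0.0255), while neither genotype alone passed (1.43 with adjusted p = 0.129 in wild type, 1.16 with 0.187 in knockout). The averaged calls of Trem1 and Fpr2 were lost without wild type VILI replicate 2, at adjusted p = 0.0632 and 0.0677, and also without wild type SB replicate 3 (0.0542 and 0.0630), among others. The knockout change of Trem1, 1.33 (adjusted p = 0.115), passed without knockout VILI replicate 1 (1.75, adjusted p = 0.0443).

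**Figure D3:**
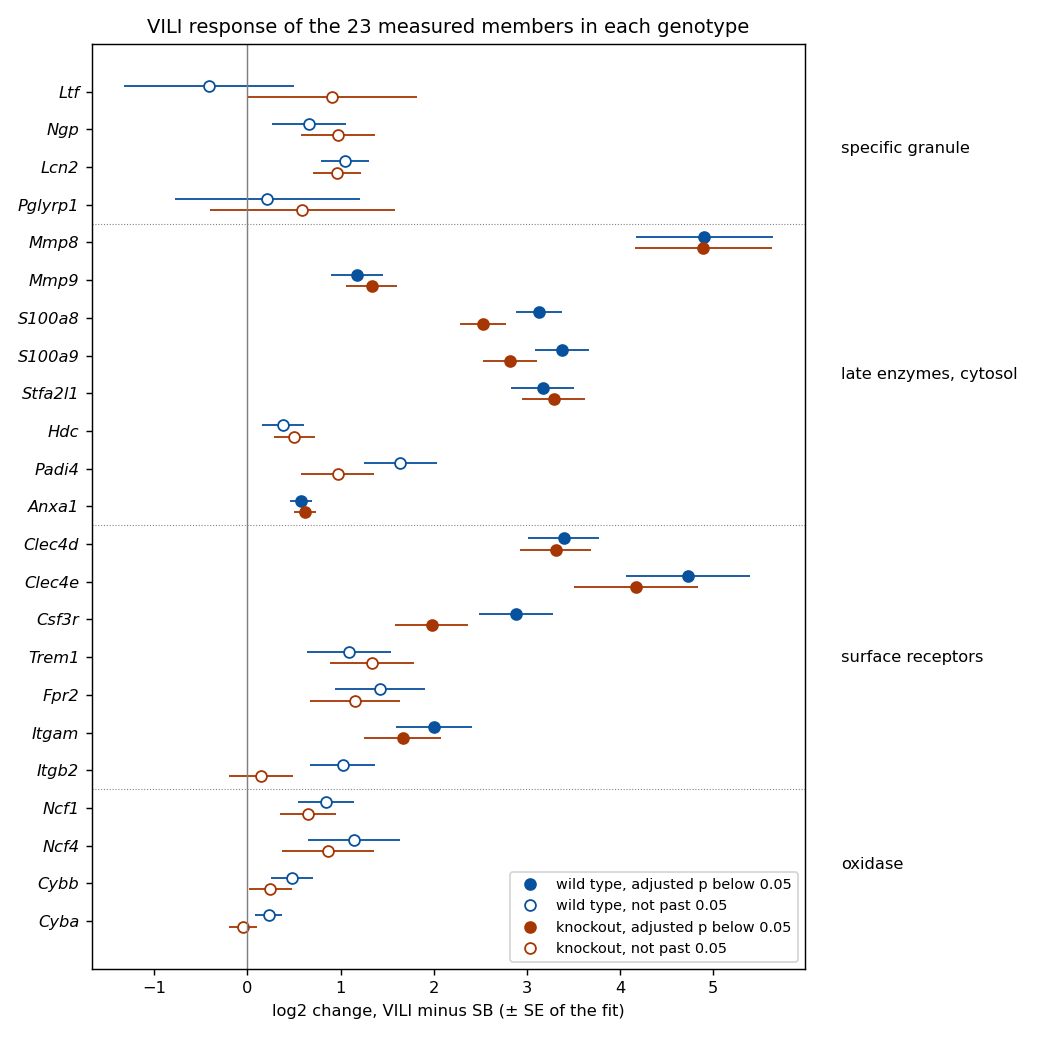
Log2 change, VILI minus SB, of the 23 tested genes in wild type (blue) and knockout (brown), with bars of 1 SE from limma and filled points where the adjusted p was below 0.05. The filled points are all late enzymes, cytosolic proteins or receptors, from 0.58 for Anxa1 to 4.91 for Mmp8 in wild type.

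The NADPH oxidase makes the superoxide of the neutrophil's respiratory burst from a membrane core (Cybb and Cyba) and cytosolic subunits (Ncf1 and Ncf4), and macrophages carry it as well. All 4 oxidase genes were tested, none was called in wild type or in knockout, and only Ncf1 rose on average. Their median change was 0.66 in wild type and 0.45 in knockout.

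Ncf1, the organizing subunit p47phox, read 7.63, 7.25 and 7.39 in wild type SB, 8.46, 8.69 and 7.66 in wild type VILI, 7.92, 7.12 and 7.86 in knockout SB and 7.93, 8.19 and 8.73 in knockout VILI. It rose on average by 0.75 (SE 0.21, limma adjusted p = 0.0341), with every VILI array above the SB arrays of its genotype by a narrow margin at the lowest. The call was lost without any of 7 arrays, with adjusted p up to 0.0848 (without wild type VILI replicate 2). Its other kept probe sets changed by 1.31 and 1.27 in wild type and by 0.13 and 0.40 in knockout.

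Ncf4, the subunit p40phox, read 6.11, 5.55 and 6.14 in wild type SB, 7.17, 7.84 and 6.22 in wild type VILI, 6.61, 6.59 and 7.67 in knockout SB and 6.82, 8.07 and 8.58 in knockout VILI. The knockout groups overlapped through SB replicate 3, an array with high B cell markers. Ncf4 is also expressed by B cells, and their part in its values was not tested. The average change was 1.0 (SE 0.35, limma adjusted p = 0.0676). It passed without that array (1.18, adjusted p = 0.0448), without wild type VILI replicate 3 (1.22, adjusted p = 0.0390) or without knockout VILI replicate 1 (1.25, adjusted p = 0.0204).

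Cybb, the catalytic subunit gp91phox, read 9.57, 9.34 and 9.50 in wild type SB, 10.08, 9.94 and 9.83 in wild type VILI, 9.84, 9.97 and 9.78 in knockout SB and 9.47, 10.20 and 10.65 in knockout VILI. The wild type groups did not overlap, and knockout VILI replicate 1 lay below the knockout SB arrays. The average change was 0.36 (SE 0.16, limma adjusted p = 0.139), and 0.52 without that array (adjusted p = 0.00742). The other kept probe sets of Cybb disagreed with this: one changed by 2.30 in wild type and 0.16 in knockout, the other by -0.10 and -0.03. Cyba, its partner p22phox, changed by 0.23 in wild type (SE 0.15, limma adjusted p = 0.409) and by -0.05 in knockout (adjusted p = 0.888).

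Macrophage and monocyte markers moved with the oxidase values on some arrays. The mean of 12 such markers was 8.07 to 8.39 in wild type SB, 8.39 to 8.59 in knockout SB, 8.19 to 9.0 in wild type VILI and 8.08 to 9.09 in knockout VILI. Wild type VILI replicate 3 and knockout VILI replicate 1 were the lowest VILI arrays both in that list (8.19 and 8.08) and in the mean of the 4 oxidase genes (8.49 and 8.69). They were also the lowest VILI arrays of their genotypes in the mean of the 15 late genes (8.83 and 8.79) and of the 15 further late neutrophil genes described below (7.63 and 7.74). Of the 12 markers Ccr2 (1.35, limma adjusted p = 0.0476) and Cd14 (0.83, adjusted p = 0.0156) rose on average, and the list's median change was 0.11. The part of macrophages and monocytes in the oxidase and integrin values was not tested.

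The classes differed in how many genes kept the conditions apart. All 6 VILI arrays lay above all 6 SB arrays for 12 of the 23 genes, against 4.26% of all genes. These were 7 of 8 late enzymes and cytosolic proteins and 5 of 7 receptors, and 0 of 4 specific granule and 0 of 4 oxidase genes. The late exceptions were Hdc, Trem1 and Itgb2. Within wild type, 18 of 23 genes had no overlap, against 11.6% of all genes, and within knockout 14 of 23, against 12.9%. These counts include genes that passed the filter through their VILI arrays. Among the 19 genes with at least 3 SB arrays above the median, 9 had no overlap over all arrays, 14 within wild type and 11 within knockout.

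The mean of the 15 tested late genes minus that of the 4 tested early ones, on the log2 scale, was -0.72, 0.23 and -1.07 in wild type SB and 1.48, 1.88 and 0.93 in wild type VILI. In the knockout it was -0.43, 0.16 and -2.58 in SB and 0.18, 1.01 and -0.47 in VILI. The wild type groups did not overlap, and the knockout groups did. The mean moved by 1.95 in wild type, from -0.52 ± 0.67 to 1.43 ± 0.47 (SD, n = 3), and by 1.19 in knockout, from -0.95 ± 1.44 to 0.24 ± 0.74 (SD, n = 3). The knockout value was 0.38 without SB replicate 3, the array at -2.58, and 0.73 without both replicate 3 arrays. No test was made of these means, which are a score over genes and serve as description only. Only specific granule genes stood for the early class. Mmp8, Clec4e and Padi4 among the late genes and Ngp among the early ones passed the filter through their VILI arrays. The filter thus favoured a rise in these genes. With a stricter filter, which drops Ngp and Padi4, the move was 2.10 in wild type and 1.30 in knockout. A score without all of these genes was not made.

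**Figure D4:**
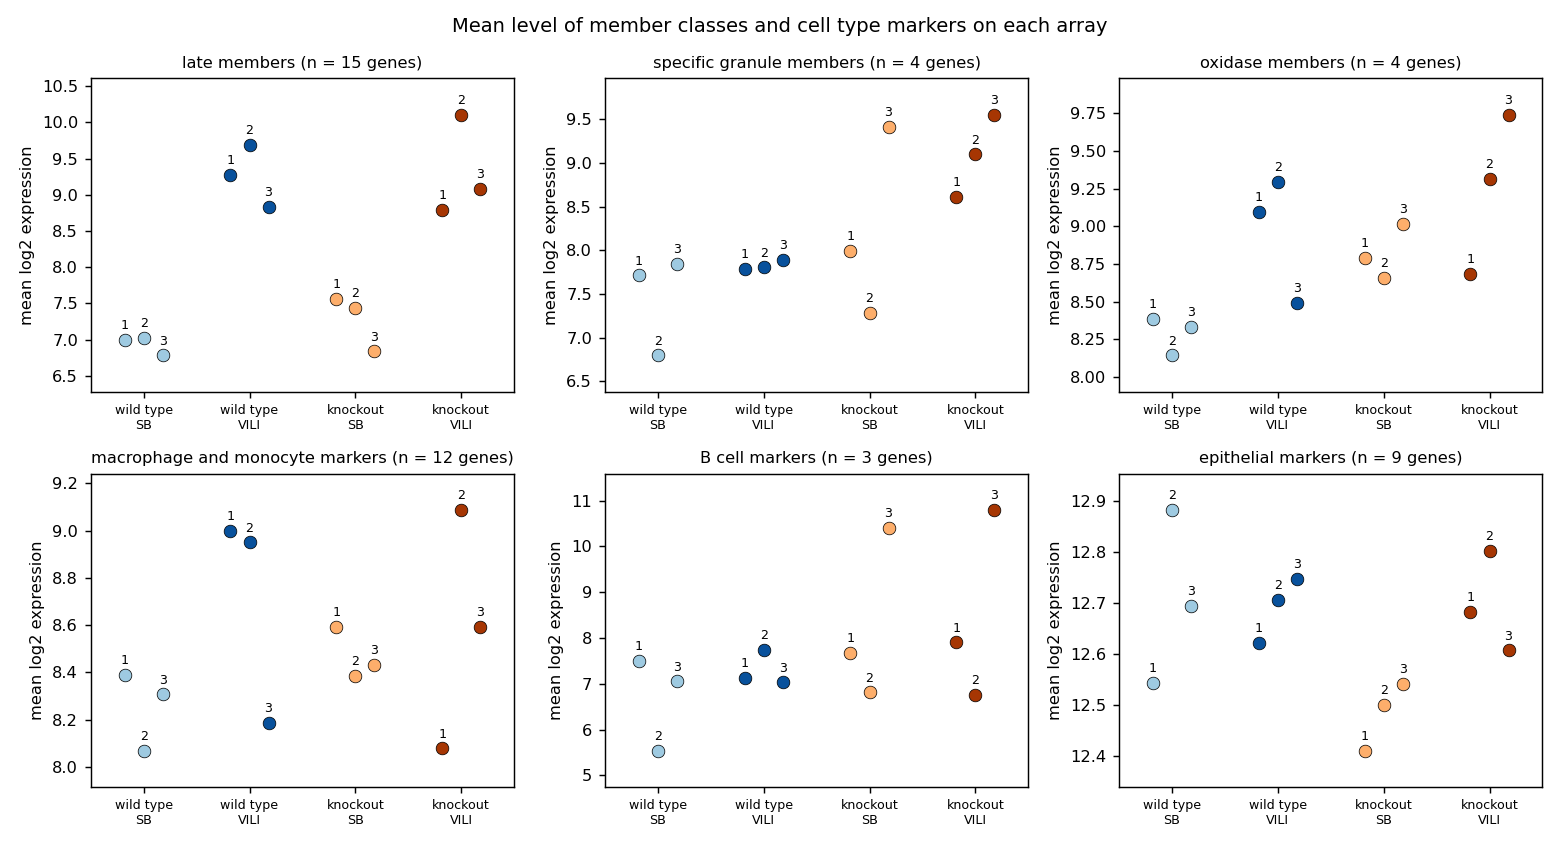
Mean log2 expression on each array of the late, specific granule and oxidase genes (top) and of macrophage and monocyte, B cell and epithelial markers (bottom), by group, with replicate numbers over the points. The late mean is at most 7.56 on SB arrays and at least 8.79 on VILI arrays, and the B cell mean of both knockout replicate 3 arrays is above 10, apart from the rest. Mmp8, Clec4e and Padi4 in the late mean passed the filter through their VILI arrays.

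The promoters of genes from both ends of this contrast are shown to set their sequence beside these values. Each is the 250 bases before the RefSeq transcription start on GRCm38.p6, printed 5′ to 3′ on the gene's own strand. Capitals mark matches, on either strand, to TTGCNNAA, a core of the C/EBP factors that drive granulocyte genes, or to GAGGAA, a core of the myeloid factor PU.1. S100a8 lies at chr3:90668821-90669070 on the plus strand, S100a9 at chr3:90695722-90695971 on the minus strand, Mmp8 at chr9:7558179-7558428 on the plus strand and Clec4e at chr6:123289872-123290121 on the minus strand, 4 late genes with large changes. Elane, at chr10:79886062-79886311 on the plus strand, is the primary granule gene that stayed near the low end of the scale.
S100a8: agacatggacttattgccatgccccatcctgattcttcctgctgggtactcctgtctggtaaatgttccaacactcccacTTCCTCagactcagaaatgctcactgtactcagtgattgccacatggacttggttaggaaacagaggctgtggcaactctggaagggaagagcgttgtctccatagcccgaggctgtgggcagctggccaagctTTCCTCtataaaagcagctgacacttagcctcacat
S100a9: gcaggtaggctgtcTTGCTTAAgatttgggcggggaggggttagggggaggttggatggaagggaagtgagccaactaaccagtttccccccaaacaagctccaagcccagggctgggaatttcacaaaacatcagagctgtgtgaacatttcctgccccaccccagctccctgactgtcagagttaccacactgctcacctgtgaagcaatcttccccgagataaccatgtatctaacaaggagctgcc
Mmp8: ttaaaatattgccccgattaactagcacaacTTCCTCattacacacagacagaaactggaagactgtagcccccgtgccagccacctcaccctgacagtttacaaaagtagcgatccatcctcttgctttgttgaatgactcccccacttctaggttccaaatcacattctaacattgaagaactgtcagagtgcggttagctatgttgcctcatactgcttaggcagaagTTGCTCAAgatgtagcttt
Clec4e: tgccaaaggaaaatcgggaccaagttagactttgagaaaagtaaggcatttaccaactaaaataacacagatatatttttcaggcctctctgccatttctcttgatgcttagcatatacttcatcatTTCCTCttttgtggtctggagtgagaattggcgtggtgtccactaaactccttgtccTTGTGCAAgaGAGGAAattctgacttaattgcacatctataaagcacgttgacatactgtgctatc
Elane: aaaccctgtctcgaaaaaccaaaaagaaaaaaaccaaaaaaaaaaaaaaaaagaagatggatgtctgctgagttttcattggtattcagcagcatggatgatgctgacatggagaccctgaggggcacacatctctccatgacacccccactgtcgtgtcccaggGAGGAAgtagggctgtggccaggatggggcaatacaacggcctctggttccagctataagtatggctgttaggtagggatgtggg

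Mmp8 holds its C/EBP match 19 to 12 bases before the start and a PU.1 match at 219 to 214. Clec4e has a C/EBP match at 66 to 59 next to a PU.1 match at 56 to 51, and another PU.1 match at 123 to 118. S100a8 has PU.1 matches at 170 to 165 and 36 to 31, S100a9 a C/EBP match at 236 to 229, and Elane a PU.1 match at 85 to 80. None of these matches overlaps another.

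Over the 28 genes found in the promoter table, 18 (64.3%) held GAGGAA, against 23.3% of 32841 promoters, and 8 (28.6%) held TTGCNNAA, against 9.57%. GAGGAA was in 11 of 16 late and 7 of 9 early genes, TTGCNNAA in 5 of 16 late and 3 of 9 early genes, and 0 of 3 oxidase genes held either. The AP-1 letters TGANTCA were in 2 of 28, 7.14% against 6.75%. An NF-kB core, GGGA and CC with any 4 bases between, was in 7 of 28, 25.0% against 17.6%, and in 3 of 3 oxidase genes. These are matches of letters in a window and no measure of binding. Mmp9, Itgb2, Trem3, Ncf4 and Cebpe were not matched in that table. Mmp25, Retnlg and Fpr1, which have no expression values here, were among the genes counted.

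Between the genotypes none of the 23 tested genes was called. Under SB, 0 of 23 differed, where 0.109% of all genes were called, and 7 of 23 had every knockout array above every wild type array, against 3.76% of all genes. These were Lcn2, S100a8, Csf3r, Itgb2, Ncf4, Cybb and Cyba. Lcn2 was higher by 0.93 (95% interval 0.36 to 1.5, limma adjusted p = 0.310) and Csf3r by 0.96 (0.10 to 1.82, adjusted p = 0.445). Cyba was higher by 0.50 (0.18 to 0.83, limma adjusted p = 0.315), S100a8 by 0.70 (adjusted p = 0.384), Itgb2 by 0.77 (0.487), Cybb by 0.39 (0.582) and Ncf4 by 1.02 (0.515). The other kept probe sets of Cybb averaged 7.09 in knockout against 4.33 in wild type, without overlap, and 7.54 against 7.41, with overlap. At an unadjusted p below 0.05 in limma, 7 of 23 passed, against 10.1% of all genes. Lymphocyte markers moved the same way under SB. The mean of 4 T and NK cell markers was 6.31, 5.42 and 5.64 in wild type and 7.19, 6.44 and 7.25 in knockout, with no overlap and a median difference of 1.11, and none of the 4 was called. The 3 B cell markers had a median difference of 1.79. Their mean was 7.50, 5.54 and 7.05 in wild type and 7.68, 6.81 and 10.40 in knockout, with overlap and with knockout replicate 3 the highest. Of 12 macrophage and monocyte markers 11 were higher, with a median of 0.11, and none of these or of the B cell markers was called. The part of other leukocytes in the SB differences was not tested. Without the replicate 3 arrays of both knockout groups, the difference was 0.76 for Lcn2, 1.11 for Csf3r, 0.87 for S100a8 and 0.67 for Ncf4, and none was called.

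After VILI, 0 of 23 differed, where 0.1% of all genes were called. At an unadjusted p below 0.05 in limma, 1 of 23 passed, against 6.88% of all genes. Every knockout array was above every wild type array for 3 of 23 genes, against 6.64% of all genes, and these were the specific granule genes Ltf, Lcn2 and Pglyrp1. Ltf was higher by 1.99 (95% interval -0.01 to 3.98, limma adjusted p = 0.724), Lcn2 by 0.85 (0.28 to 1.42, adjusted p = 0.501) and Pglyrp1 by 1.67 (-0.51 to 3.84, adjusted p = 0.763). Without the replicate 3 arrays of both knockout groups the differences were 1.68, 0.75 and 1.01, and none was called. Hdc was lower in every knockout VILI array, by -0.42 (limma adjusted p = 0.745), and 8.13% of all genes had that pattern.

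The response to VILI was not shown to differ between the genotypes. In limma's test of the interaction 0 of 23 genes and 0 of 10996 genes were called, and at an unadjusted p below 0.05 it was 0 of 23 and 2.62% of all genes. By the probe set used for each gene, the largest differences of response, knockout minus wild type, were 1.32 for Ltf (95% interval -1.49 to 4.14), -0.91 for Csf3r (-2.13 to 0.31) and -0.88 for Itgb2 (-1.96 to 0.20). With 3 mice a group these intervals reach differences of more than a doubling. Some other kept probe sets differed more. One of Cybb changed by 2.30 in wild type and 0.16 in knockout, and one of Ncf1 by 1.31 and 0.13. A further one of Cybb changed by -0.10 and -0.03.

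Most tested genes of a further late neutrophil list also rose on average, a list chosen with earlier results of these data known. Of its 20 genes 15 were tested, and 11 rose and 0 fell on average, with a median change of 1.01. Of all genes 8.42% were higher and 9.39% lower on average. In wild type 3 rose and 12 were not called, where 1.36% of all genes were higher. In knockout 6 rose, where 2.76% of all genes were higher. The largest changes were those of Il1r2, a decoy receptor for interleukin 1 (3.99, SE 0.48, limma adjusted p = 0.000698), Ifitm6, an interferon-induced membrane protein (3.13, adjusted p = 0.00508), and Cxcr2, the chemokine receptor that draws neutrophils into tissue (2.89, adjusted p = 0.000864). Pirb, an inhibitory receptor, rose by 1.65 (limma adjusted p = 0.00479), Wfdc21 by 1.55 (adjusted p = 0.00133) and Csf2rb, the common β chain of the GM-CSF receptor family, by 1.09 (adjusted p = 0.0124). Of 11 further early granulocyte genes only 4 were tested and 0 were called higher, with a median average change of -0.23. Only 1 of the 4 changed upward on average, by 1.99 (1.30 in wild type and 2.68 in knockout), and it was not called. Myb, a factor of progenitor cells, fell by 1.02 on average (SE 0.25, limma adjusted p = 0.0185). Ctsg, Ms4a3, Fcnb, Olfm4, Gfi1 and Ceacam10 had no probe set above the filter. Of 6 further oxidase parts 5 were tested and 0 were called. Rac2, the small GTPase of the leukocyte oxidase, had the largest change there (1.28, SE 0.44, limma adjusted p = 0.0665).

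Leaving out single arrays bore mainly on the counts within a genotype. The wild type count of 10 became 5 without wild type VILI replicate 2 and 6 without wild type SB replicate 3, and the knockout count of 10 became 6 without knockout VILI replicate 2. S100a8, S100a9, Stfa2l1, Clec4d and Csf3r in wild type, and Mmp8, S100a8, S100a9, Stfa2l1, Clec4d and Clec4e in knockout, were called in all 12 such fits. Without both knockout replicate 3 arrays the counts were 12 in wild type, 5 in knockout and 12 on average, and the 5 were Mmp8, S100a8, S100a9, Stfa2l1 and Clec4d. The averaged calls lost there were Trem1, Fpr2 and Ncf1, with adjusted p of 0.0749, 0.0545 and 0.0662. With only the 6 knockout arrays in the fit the knockout count was 3, namely S100a8, S100a9 and Stfa2l1, and Mmp8 and Clec4d were at adjusted p = 0.0664 and 0.0583.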

How the data were processed

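Total RNA of lung from 12 mice was hybridised to Affymetrix arrays, 1 mouse per array. The deposited table holds normalized log2 expression per probe set, a scale read from its values. MAS5 and GCRMA are named, without role, order or version, per the submitters' processing notes. Groups follow the sample titles; a description that calls every sample a control was not used. Of 45101 probe sets, 64 controls were left out, and 23082 were above their array's median on at least 3 arrays. Each gene was represented by whichever of its kept probe sets had the highest mean, with 1 symbol from GEO's platform annotation, which leaves 10996 genes. limma 3.58.1 in R 4.3.3 was fitted to all 12 arrays with 1 mean per group and a mean-variance trend, with Benjamini-Hochberg adjustment over all genes and a threshold of 0.05. The residual degrees of freedom were 8. The script was tested on simulated data. The number of arrays limits the precision.

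Alternatives covered the filter, scaling, trend, probe set rule, replicate block and single arrays. Leaving out both knockout replicate 3 arrays was added after the values were seen. Same-numbered arrays of wild type and knockout SB deviated together (r of 0.23, 0.53 and 0.32), a pairing that the labels do not state, and the block left 0 genes called there. The members and lists were chosen with earlier results of these data known. Every member is accounted for. Of the further lists, up to 6 genes with the largest average change past the threshold are named. Promoter sequences are RefSeq's, on GRCm38.p6.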

Additional observations from a re-analysis of the deposited data

How the results depend on the processing

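The counts called in wild type, in knockout and on average were 7, 8 and 14 of 29 genes with no filter on low probe sets, where Trem3 was added and Fpr2 and Ncf1 were lost on average. With a stricter filter they were 10, 10 and 14 of 21, without Ngp and Padi4. Of the 23 genes they were 8, 9 and 15 with arrays centred on their medians, 10, 10 and 15 after quantile normalization, 8, 10 and 15 with no mean-variance trend, 9, 7 and 14 with the mean of a gene's probe sets and 9, 9 and 15 with all probe sets tested. Using only the arrays of the groups compared gave 10 in wild type and 3 in knockout, where fewer arrays enter the fit. Without both knockout replicate 3 arrays the knockout count was 5. Leaving out 1 array gave 5 to 11 in wild type, 6 to 12 in knockout and 12 to 19 on average, and moved the late minus early shift between 1.68 and 2.33 in wild type and between 0.38 and 1.74 in knockout. The genotype comparisons and the interaction gave 0 genes in every alternative run. Limiting the early class to primary granule genes gave no value, since 0 of them were tested.

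Same-numbered VILI and SB arrays showed little common deviation in wild type (r of -0.01, -0.04 and 0.06) and more in knockout (r of 0.05, 0.21 and 0.43). The labels state no pairing. With the replicate number as a block the counts were 12, 11 and 16. The block added Padi4 and Fpr2 in wild type, Trem1 in knockout and Hdc on average, and changed no other call.

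Signs turned only for changes that were not called, and the cause was not tested. Leaving out 1 array, the change of Ltf ranged from -1.20 to 0.32 in wild type, -0.071 to 1.80 in knockout and -0.24 to 0.70 on average. That of Pglyrp1 ranged from -0.23 to 0.51, -0.23 to 2.04 and -0.0069 to 1.12 in the same order. In knockout, Itgb2 ranged from -0.086 to 0.49, Cybb from -0.028 to 0.56 and Cyba from -0.16 to 0.082. Without both knockout replicate 3 arrays, Itgb2 was at -0.11 and Cybb at -0.069 in knockout.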
